A study of Mus musculus with 2 samples.

Results

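MicroRNAs (miRNAs) that mark the epithelial state were followed in exosomes from the serum of tumour-bearing mice. They were chosen by name, with no measured value in the rule, though earlier results of these data were known, and are the 5 main arms of the miR-200 family (mmu-miR-200a-3p, mmu-miR-200b-3p, mmu-miR-429-3p, mmu-miR-200c-3p and mmu-miR-141-3p), mmu-miR-203-3p, mmu-miR-205-5p, and the 3 main arms of the miR-183 cluster (mmu-miR-183-5p, mmu-miR-96-5p and mmu-miR-182-5p). All 10 names were found among the 1881 mouse miRNAs on the array, each with 2 probes. The mice had received 1000000 luciferase-expressing Lewis lung carcinoma (LLC) cells under the skin, either alone (LLC) or together with murine bone marrow-derived mesenchymal stem cells (BMSCs; MSC+LLC), and serum was taken when tumours averaged 200 mm3. The hosts of the study's allografts were female C57BL/6 mice aged 6 weeks. Its text says plasma where the labels say serum, and the number of injected BMSCs and of mice per array was not given in the sources used here. LLC is a mouse lung cancer line, and the injected cells were the difference between the groups. Each group was 1 Agilent array, so no test between the groups was possible and every difference is one between 2 arrays. The source labels name cultured cells, but the titles and protocol name serum, whose exosomes come from many tissues of the mouse. Slide and scan were shared by the arrays, and an effect of the place on the slide cannot be told apart from the group.

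The miR-200 family keeps cells epithelial by repressing Zeb1 and Zeb2, transcription factors that shut off E-cadherin, and these factors in turn repress the miR-200 genes. This loop is a core switch of epithelial-mesenchymal transition (EMT), the process the study deals with. miR-205 also represses Zeb1 and Zeb2 and is abundant in stratified epithelia, miR-203 promotes differentiation in the epidermis, and the miR-183 cluster is made from a single primary transcript and is best known from sensory epithelia.

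The mature sequences show which of these miRNAs are so alike that an array probe could confuse them, and which share a seed. All 10 were matched by name in the RefSeq table (GRCm38.p6). They are written 5′ to 3′, with the seed (bases 2 to 8), the stretch that pairs with targets, in capitals.
mmu-miR-200b-3p: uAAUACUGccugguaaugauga
mmu-miR-200c-3p: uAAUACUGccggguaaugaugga
mmu-miR-429-3p: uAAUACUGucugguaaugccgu
mmu-miR-200a-3p: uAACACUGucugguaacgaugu
mmu-miR-141-3p: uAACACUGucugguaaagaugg
mmu-miR-183-5p: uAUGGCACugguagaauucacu
mmu-miR-96-5p: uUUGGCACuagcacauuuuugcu
mmu-miR-182-5p: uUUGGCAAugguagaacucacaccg
mmu-miR-203-3p: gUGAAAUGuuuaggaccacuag
mmu-miR-205-5p: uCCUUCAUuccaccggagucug

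miR-200b-3p, miR-200c-3p and miR-429-3p shared the seed AAUACUG, and miR-200a-3p and miR-141-3p shared AACACUG. Counted from 1 at the 5′ end, the seeds of miR-200a-3p and miR-200b-3p differ by C4U only. Over 22 aligned positions, miR-200b-3p and miR-200c-3p differ by U11G and A22G, and miR-200a-3p and miR-141-3p by C17A and U22G. Whether each probe tells such close relatives apart was not tested. In the miR-183 cluster no seed is shared, and miR-183-5p and miR-182-5p differ at 4 of 22 positions (A2U, C8A, U17C and U22A). miR-203-3p and miR-205-5p are unrelated to the others and differ from each other at 19 positions.

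These miRNAs come from 5 places in the mouse genome (GRCm38.p6), and the prefix mmu for mouse is left out from here. The hairpins of miR-429, miR-200a and miR-200b lie at chr4:156053905-156055750 on the minus strand, within the long non-coding RNA gene Gm13648. Those of miR-141 and miR-200c lie at chr6:124717914-124718390 on the minus strand, between the protein-coding genes Phb2 and Ptpn6. The hairpins of miR-182, miR-96 and miR-183 lie at chr6:30165918-30169737 on the minus strand, within the long non-coding RNA gene Mirc35hg. miR-205 lies at chr1:193507463-193507530 on the minus strand within the non-coding gene Mir205hg, and miR-203 at chr12:112130880-112130955 on the plus strand between Aspg and Kif26a.

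The arrays differed greatly in brightness. Detection of a probe required over 50% of its spots to lie well above background in the flags of the scanner software. By this, 502 miRNAs were detected on the LLC array against 258 on the MSC+LLC array. The 75th percentile of signal, taken over probes that both arrays detected, was 11.5 times lower in MSC+LLC, although 100 ng of RNA was labelled for each. Fewer exosomes of a kind and less miRNA per exosome cannot be told apart in such samples. Ratios called scaled are MSC+LLC over LLC after each array was divided by that percentile, and unscaled ratios compare the intensities as measured.

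Epithelial miRNAs were found in the serum exosomes of both groups, and fewer on the dimmer array. On the LLC array 8 of the 10 were detected, beside 26.7% of all miRNAs. On the MSC+LLC array 5 of the 10 were detected, beside 13.7% of all miRNAs, so 5 of the 8 were detected again, beside 47.8% of all miRNAs detected in LLC. The 5 were miR-200a-3p, miR-429-3p, miR-203-3p, miR-205-5p and miR-183-5p. miR-200b-3p, miR-200c-3p and miR-141-3p were detected on the LLC array only, miR-96-5p and miR-182-5p on neither, and none on the MSC+LLC array only. The scanner software also gives a total signal per miRNA, on a scale of its own that cannot be set against the probe intensities and with 0.1 for an undetected miRNA. Its sum over the 10 was 555 in LLC and 62.3 in MSC+LLC.

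**Figure D1:**
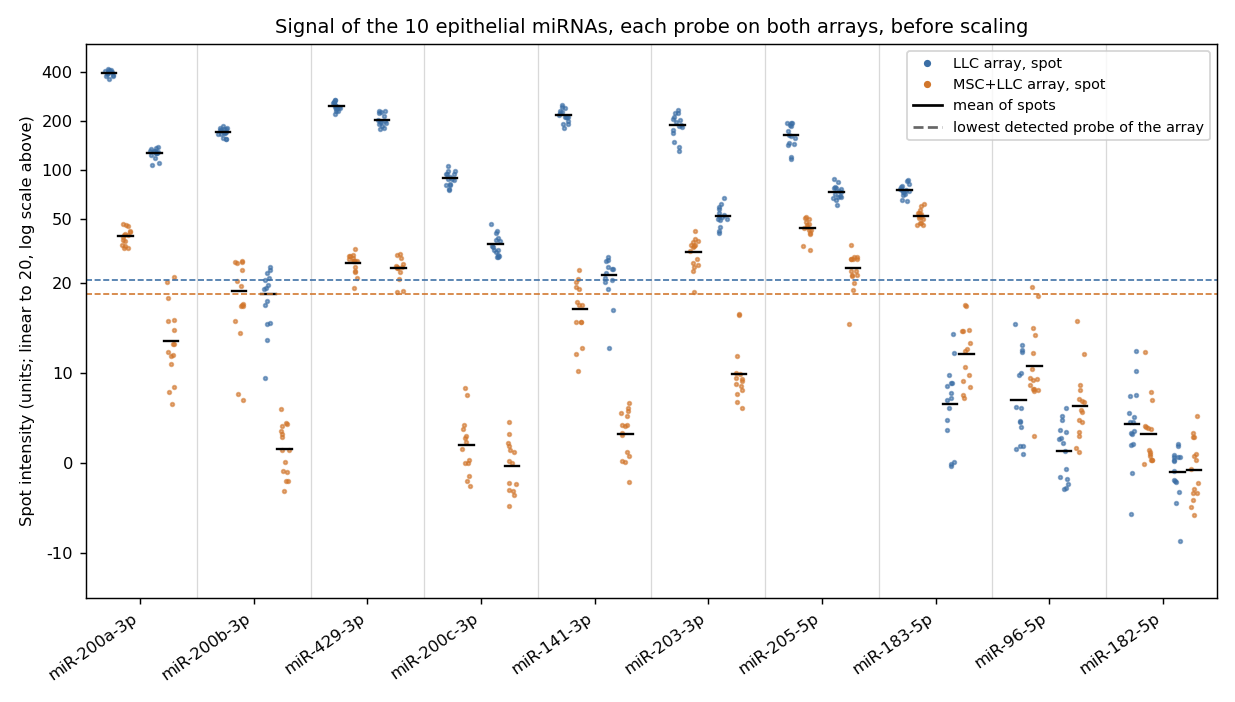
Intensity of every spot (points) and the mean of the spots of each probe (bars) for the 10 epithelial miRNAs in LLC and MSC+LLC, before scaling; the axis is linear up to 20 units and logarithmic above, and dashed lines mark the lowest detected probe of each array (20.9 and 18.8 units). The signals of miR-200a-3p, miR-429-3p and miR-141-3p drop steeply from LLC to MSC+LLC, while those of the brighter miR-183-5p probe lie close together at 75.3 and 52.2 units.

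Within the cluster on chromosome 4, miR-200a-3p and miR-429-3p dimmed about as much as the typical miRNA of these arrays. The brighter probe of miR-200a-3p reached 398 ± 16.9 (SD, n = 13 spots) intensity units in LLC and 39.1 ± 4.56 (SD, n = 15 spots) in MSC+LLC. With the arrays 11.5-fold apart in brightness, a lack of overlap of unscaled spots is given, here and below, as a description only. Its share over all probes was not computed. The spots of this miR-200a-3p probe did not overlap between the arrays, and it was 10.2-fold dimmer before scaling. After scaling its log2 ratio was 0.18, equal to its spot-to-spot SD of 0.18. Its other probe gave 126 units in LLC and 13.6 in MSC+LLC, where only 2 of 15 spots were well above background.

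For miR-429-3p both probes were measured on both arrays. The brighter probe gave 248 ± 14.2 (SD, n = 15 spots) and 26.7 ± 3.50 (SD, n = 15 spots), and the other 204 ± 18.2 (SD, n = 14 spots) and 24.8 ± 3.57 (SD, n = 13 spots). The spots of the arrays did not overlap for either probe. The scaled log2 ratio was 0.40, with its probes at 0.31 and 0.49 and a spot-to-spot SD of 0.23. Neither member of the cluster stood far from the median of 0.15 over the 240 miRNAs measured on both arrays, since 51.2% of these had a lower ratio than miR-200a-3p and 59.6% a lower ratio than miR-429-3p.

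The third member of that cluster, miR-200b-3p, was near the detection limit of the dimmer array. Its brighter probe gave 172 ± 9.94 (SD, n = 15 spots) in LLC and 19.2 ± 6.53 (SD, n = 15 spots) in MSC+LLC, where 7 of 15 spots were well above background. By the measured means it was 8.96-fold dimmer before scaling, as its MSC+LLC mean lay just above that array's lowest detected signal. No bound remained after scaling. Its other probe gave 18.8 units in LLC and 1.5 in MSC+LLC and was detected on neither. The software's own detection flag per miRNA called it, and also miR-141-3p, detected on both arrays. By that flag 8 of the 10 were detected in LLC, beside 31.7% of all miRNAs, and 7 in MSC+LLC, beside 16.5%. When every spot had to be well above background, 8 were detected in LLC, beside 24.1%, and 3 in MSC+LLC, beside 11.4%.

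The neighbours on chromosome 6, miR-200c-3p and miR-141-3p, were both lost from detection on the MSC+LLC array, but to different degrees. The brighter probe of miR-141-3p gave 218 ± 20.4 (SD, n = 15 spots) and then 17.1 ± 3.79 (SD, n = 14 spots), with 4 of 14 spots well above background. It was at least 11.6-fold dimmer before scaling, and after scaling the bound was at 1.00-fold. Its other probe gave 22.6 and 3.24 units.

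miR-200c-3p left no detectable signal on the MSC+LLC array. Its brighter probe gave 89.0 ± 8.82 (SD, n = 15 spots) on the LLC array, with all spots well above background. In MSC+LLC it gave 2.0 ± 3.29 (SD, n = 14 spots), with none well above background. That lies below the mean of the negative control spots, 3.70 ± 3.43 (SD, n = 965 spots). Its other probe gave 34.7 and -0.30 units. The brighter probe was thus at least 4.74-fold dimmer before scaling. No bound was left after scaling, because a probe at 89.0 units on the LLC array could be seen on the other array only with a scaled log2 ratio of about 1.28 or more.

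miR-203-3p, from chromosome 12, was measured on both arrays by its brighter probe. This gave 188 ± 31.4 (SD, n = 15 spots) in LLC and 31.2 ± 6.12 (SD, n = 15 spots) in MSC+LLC, without overlap of the spots. It was 6.04-fold dimmer before scaling and had a scaled log2 ratio of 0.93 with a spot-to-spot SD of 0.37. The other probe gave 52.2 units in LLC, and 9.90 in MSC+LLC with no spot well above background.

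miR-205-5p dimmed less. Its brighter probe gave 164 ± 27.3 (SD, n = 14 spots) and 43.7 ± 5.74 (SD, n = 14 spots), and its other probe 73.2 ± 7.23 (SD, n = 15 spots) and 25 ± 4.90 (SD, n = 15 spots). The spots of the arrays did not overlap for either probe. They were 3.75-fold and 2.93-fold dimmer before scaling. The scaled log2 ratio was 1.80 (3.47-fold higher in MSC+LLC), with its probes at 1.62 and 1.97 and a spot-to-spot SD of 0.31. The dimmer probe, at 1.97, could be measured only at about 1.56 or more. That it was more than 2-fold higher was therefore fixed once it was detected.

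miR-183-5p kept most of its signal on the dimmer array. Its brighter probe gave 75.3 ± 6.41 (SD, n = 15 spots) in LLC and 52.2 ± 4.85 (SD, n = 15 spots) in MSC+LLC. All spots on both arrays were well above background, and the spots of the arrays did not overlap, the lowest LLC spot being 64.4 and the highest MSC+LLC spot 61.4. The probe was 1.44-fold dimmer before scaling. After scaling its log2 ratio was 3.00 (7.99-fold higher in MSC+LLC), with a spot-to-spot SD of 0.18. A lower ratio was found for 92.9% of the 240 miRNAs with a ratio, which placed miR-183-5p at rank 17 from the top. A high rank was fixed by detection, since the probe could be measured only at a scaled log2 ratio of about 1.52 or more. That limit lies above the upper quartile of 1.18 over the 240 miRNAs. The ratio of miR-183-5p rests on 1 probe. Its other probe gave 6.58 ± 4.35 units (SD, n = 15 spots) in LLC and 12.2 ± 3.47 (SD, n = 14 spots) in MSC+LLC and was detected on neither.

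The other members of the miR-183 cluster were not detected. The brighter probe of miR-96-5p gave 7.0 ± 4.81 (SD, n = 15 spots) in LLC and 10.8 ± 4.38 (SD, n = 15 spots) in MSC+LLC, where 1 of 15 spots was well above background. Its other probe gave 1.33 and 6.39 units. The probes of miR-182-5p gave 4.32 and -1.06 units in LLC and 3.22 and -0.73 in MSC+LLC, with no spot well above background. The negative control spots averaged 2.09 ± 3.82 (SD, n = 986 spots) on the LLC array and 3.70 ± 3.43 (SD, n = 965 spots) on the other. The brightest single negative control spot had 14.4 units in LLC and 18.2 in MSC+LLC, above every probe mean of miR-96-5p and miR-182-5p. A mean over spots and a single highest spot are unlike measures, so this does not show that signal was absent. Under the main detection rule no ratio is given for these cluster-mates of miR-183-5p. Under a laxer call that needs spots to be positive and significant against the local background, all 10 epithelial miRNAs were detected in LLC, beside 43.8% of all miRNAs, and 8 in MSC+LLC, beside 27.7%. miR-96-5p was then detected on both arrays with a scaled log2 ratio of 4.01, beside 3.56 for miR-183-5p under the same call, and miR-182-5p was detected in LLC only. The value of miR-96-5p rests on its brighter probe, with 10 of 15 spots positive and significant in LLC and 14 of 15 in MSC+LLC. The means of that probe lay above the negative control means but below the brightest single negative control spot of each array.

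**Figure D2:**
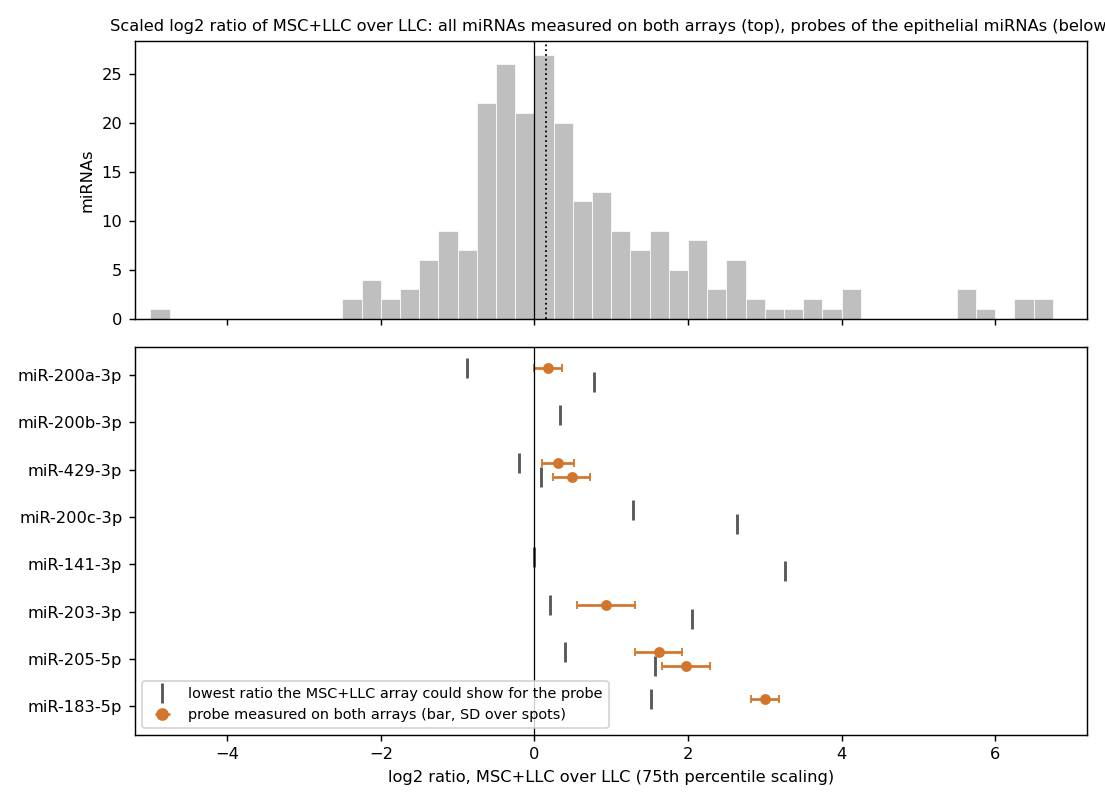
Top, histogram of the scaled log2 ratio of MSC+LLC over LLC for the 240 miRNAs measured on both arrays, with the median of 0.15 dotted. Bottom, the same ratio for each probe of the epithelial miRNAs measured on both arrays (points, with the SD over spots), and for every probe detected on the LLC array the lowest ratio that the MSC+LLC array could show (vertical ticks); miR-183-5p lies farthest right at 3.00 and miR-200a-3p at 0.18.

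The 5 members measured on both arrays all had scaled ratios above 0, beside 57.1% of all miRNAs with a ratio, but the dimmer array left most of them little room to do otherwise. The lowest detected probe on the MSC+LLC array had 18.8 units, which at an unchanged scaled ratio corresponds to 216 units on the LLC array. Of the 14 probes of these miRNAs detected on the LLC array, 11 lay at or below that level, as did 60.7% of all detected probes. For such a probe only a scaled ratio above 0 could be measured. The limit in scaled log2 ratio was taken for the brighter probe of each. It was about -0.88 for miR-200a-3p, -0.20 for miR-429-3p, 0.20 for miR-203-3p, 0.40 for miR-205-5p and 1.52 for miR-183-5p. For the other probe of miR-205-5p it was about 1.56, and for that of miR-429-3p about 0.08. For miR-203-3p, miR-205-5p and miR-183-5p a scaled ratio below 0 could therefore not be measured, and the counts are given as a description. The limits are approximate, since a few probes a little above 18.8 units were not detected. Of the 5, 2 were at least 2-fold higher (miR-205-5p and miR-183-5p), beside 27.1% of all miRNAs measured on both arrays, and 0 were at least 2-fold lower, beside 11.2%. Only miR-183-5p was at least 4-fold higher, beside 14.6% of all.

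Differences between members in the ratio do not depend on the constant by which an array is divided, but the detection limits bear on them. Those limits ran in the same order as the ratios of the measured members. miR-183-5p could be measured only at about 1.52 or more, already above the ratios of miR-203-3p, miR-429-3p and miR-200a-3p. That it exceeded these was therefore fixed once it was detected, and the differences are given as a description. The log2 ratio of miR-183-5p exceeded that of miR-205-5p by 1.20, of miR-203-3p by 2.07, of miR-429-3p by 2.60 and of miR-200a-3p by 2.82. The first of these was 0.59 with normexp background correction, which here adds 50 units to every spot. With the laxer spot call, which adds the dim probe of miR-183-5p, it was 1.91. Each of the differences was more than 3 times its spot-to-spot SD, which was 0.36, 0.41, 0.29 and 0.26 in the order given. miR-205-5p exceeded miR-200a-3p by 1.62, with an SD of 0.36, and miR-203-3p by 0.86, with an SD of 0.48. The dimmer probe of miR-205-5p could be measured only at about 1.56 or more, so that this probe exceeded them was fixed by detection. The brighter probe of miR-205-5p had a ratio of 1.62. miR-203-3p exceeded miR-429-3p by 0.53, with an SD of 0.44, and miR-429-3p exceeded miR-200a-3p by 0.22, within the SD of 0.29. These SDs are technical and say nothing of the spread between mice.

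The direction of the ratios followed the scaling. Without scaling the log2 ratios ran from -3.35 for miR-200a-3p to -0.53 for miR-183-5p, and 4 of the 5 were at least 2-fold lower, beside 90.4% of all miRNAs, and 0 higher, beside 3.33%. Scaling by the hybridization spike-ins, RNAs added before hybridization, gave -3.39 and -0.57 for these miRNAs and the same counts and background. With the labelling spike-ins, RNAs added in a fixed amount before labelling, miR-183-5p stood at 0.79 and miR-205-5p at -0.41. Then 3 were at least 2-fold lower, beside 75% of all, and 0 higher, beside 6.25%. With all spike-ins 4 were lower, beside 85%, and 0 higher, beside 4.58%. The 75th percentile of all probes put miR-183-5p at 1.78 and miR-205-5p at 0.58, while miR-203-3p, miR-429-3p and miR-200a-3p were at -0.28, -0.82 and -1.04. This left 1 at least 2-fold higher, beside 11.2%, and 1 lower, beside 52.9%. Background correction by normexp, with its offset of 50 units added to every spot, made all 5 at least 2-fold higher, beside 46.2% of all. The median log2 ratio over all measured miRNAs was then 0.84. Under each of these settings miR-183-5p had the highest ratio of the 5 and miR-200a-3p the lowest. Apart from normexp the settings are constants per array, which cannot change that order. The labelling spike-ins themselves had a mean log2 ratio of -1.32 and the hybridization spike-ins 0.038.

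**Figure D3:**
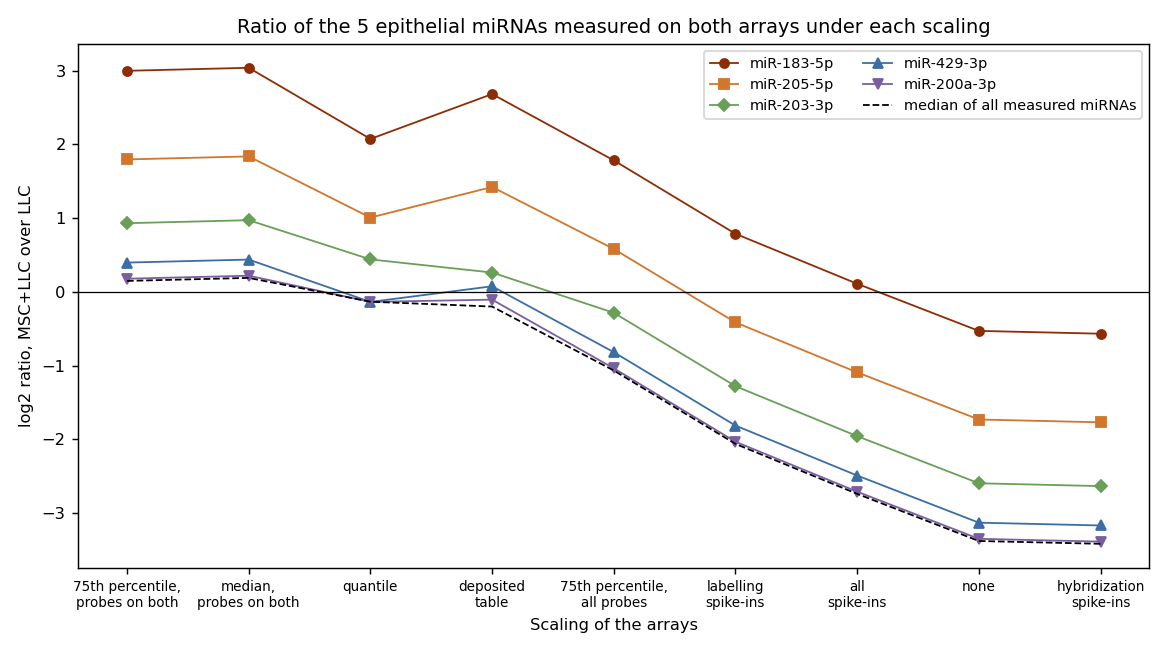
Log2 ratio of MSC+LLC over LLC for the 5 epithelial miRNAs measured on both arrays (points joined by lines for ease of reading) and the median of all measured miRNAs (dashed) under 9 ways of scaling. miR-183-5p runs from 3.04 with the median to -0.57 with the hybridization spike-ins, and stays above the other 4 throughout. Scaling by a constant per array cannot change this order.

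The deposited table gave a value on both arrays for every member, also for those that were not detected. Each value is a summed signal per miRNA on the log2 scale, less a constant per array, and an undetected miRNA has a summed signal of 0.1. miR-200c-3p went from -1.98 on the LLC array to -6.80 on the MSC+LLC array, a difference of -4.83 that rests on that placeholder. miR-96-5p and miR-182-5p, detected on neither array, each had a difference of 3.54, which is the difference of the constants alone and larger than the 2.68 of miR-183-5p. For miR-141-3p the difference was -0.60, for miR-200b-3p -0.10 and for miR-200a-3p -0.11, each detected on both arrays in that table.

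The other arms of the same precursors were not detected by the main rule. All 10 (for example miR-200a-5p and miR-183-3p) were on the array with 32 probes in all. In LLC 0 were detected, beside 26.7% of all miRNAs, and in MSC+LLC 0, beside 13.7%. Of their spots, 0 of 282 in LLC and 0 of 288 in MSC+LLC were well above background. The highest of these probes gave 8.74 units in LLC and 1.68 in MSC+LLC. With the laxer call, 3 of the 10 were detected in LLC (miR-200a-5p, miR-200b-5p and miR-141-5p), beside 43.8% of all, and 0 in MSC+LLC, beside 27.7%.

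Other miRNAs known from epithelia had scaled ratios on both sides of 0, but their detection limits differed. Of 8 on the array, 5 were detected in LLC, beside 26.7% of all miRNAs, and 4 in MSC+LLC, beside 13.7%. The scaled log2 ratio was 1.84 for miR-375-3p, an islet and endocrine epithelial miRNA, 0.27 for miR-31-5p, -0.32 for miR-192-5p and -0.76 for miR-215-5p, the last 2 being gut, kidney and liver miRNAs. miR-194-5p was seen in LLC only, and miR-34b-5p, miR-34c-5p and miR-449a-5p, known from ciliated cells, on neither array. The median of the 4 was -0.02, beside 0.15 over all measured miRNAs. However, miR-375-3p could be measured only at a scaled log2 ratio of about 1.36 or more, and miR-31-5p at about -0.02 or more. For the brighter probes of miR-192-5p and miR-215-5p the limits were about -4.33 and -2.09. The spread of these ratios and their median are therefore given as a description.

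Among miRNAs known from mesenchymal cells or from the mesenchymal side of EMT, 8 of 10 were detected in LLC and 6 in MSC+LLC. The shares over all miRNAs were 26.7% and 13.7%. Their scaled log2 ratios were 1.75 for miR-222-3p, 0.82 for miR-214-3p, 0.57 for miR-199a-3p, 0.19 for miR-221-3p, -0.25 for miR-21a-5p and -0.56 for miR-10b-5p, with a median of 0.38. The range of -0.56 to 1.75 overlapped that of the epithelial members, 0.18 to 3.00. miR-155-5p and miR-143-3p were detected on the LLC array only, and miR-199a-5p and miR-145a-5p on neither.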

How the data were processed

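Serum exosomal RNA was read on Agilent mouse miRNA arrays in 1 colour, 1 array per group, with groups taken from the sample titles. The authors used Agilent's Feature Extraction software (version 11.5.1.1 in the file headers and 10.7 in the labels), and its deposited spot values are background-subtracted intensity on a linear scale without scaling between arrays. The deposited series table holds log2 values made by the authors in GeneSpring GX 11.0.

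Control spots and outlier spots (3.04% of miRNA spots on the LLC array, 2.95% on the other) were not used, and no spot was saturated. Spots of a probe were averaged on the linear scale. Log2 ratios of probes detected on both arrays were averaged per miRNA. For a probe detected on 1 array the bound compared it with its signal on the other array or, where higher, that array's lowest detected signal. The spot-to-spot SD of a ratio combines the coefficients of variation of both arrays. The number of arrays limits the precision, and no p-value is given.

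All 10 members are named. The members, their other arms and the lists of other miRNAs were set by name and not by a measured value, but with earlier results of these data known. The planned rule was to name other arms detected on either array and listed miRNAs detected on both arrays. Some that were not detected are named as well. Names of miRNAs follow the array design (mm9), and RefSeq (GRCm38.p6) gave sequences and positions. Alternatives covered the scaling, detection rule, spot summary, background correction and fold threshold. Functions were tested on simulated data. Python 3.11.15, numpy 2.4.6, pandas 2.3.3, matplotlib 3.10.9, R 4.3.3 and limma 3.58.1 (normexp) were used.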

Additional observations from a re-analysis of the deposited data

How the results depend on the processing

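No paired analysis was possible because there was only 1 array in either group. Subtracting the mean of the negative controls was chosen after seeing the data and changed no direction and none of the counts. The number of these miRNAs detected on the LLC array was 8 or, with positive and significant spots, 10. On the MSC+LLC array 5 were detected, 3 when every spot had to be well above background, 7 by the flag of the scanner software and in the deposited table, and 8 with positive and significant spots. The counts at least 2-fold higher and lower (2 and 0) became 1 and 1 when all probes entered the 75th percentile, 0 and 3 with the labelling spike-ins, 0 and 4 with all spike-ins, with the hybridization spike-ins and without scaling, and 5 higher with normexp. A threshold of 4-fold left 1 higher. The count higher was 3 with the median of spots, with positive and significant spots and at a threshold of 1.5-fold. The median log2 ratio (0.93) was -0.28 when all probes entered the percentile, -1.28 with the labelling, -1.96 with all and -2.63 with the hybridization spike-ins, and -2.59 without scaling. It was 0.44 after quantile normalization, 1.78 with normexp, 0.57 with positive and significant spots, 0.51 with the total signal and 0.076 in the deposited values; the last 3 cover more members. Constant scalings move all ratios alike by construction, and for the others the cause was not tested. miR-205-5p (1.80) reversed to -0.41 with the labelling, -1.09 with all and -1.77 with the hybridization spike-ins and to -1.73 without scaling. miR-183-5p (3.00) reversed to -0.57 with the hybridization spike-ins and -0.53 without scaling. The order of the 5 measured members was the same in 14 of 15 alternatives. Alternatives that divide each array by a constant could not change it, and the deposited values repeat the order of the total signal by construction. Quantile normalization put miR-429-3p and miR-200a-3p level at -0.14. The excess of miR-183-5p over miR-200a-3p ran from 1.86 (normexp) to 3.46. The low signal over background of the MSC+LLC array limits above all the detection of decreases.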

Other observations

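The serum held miRNAs of blood cells, liver and muscle, and these markers did not share one ratio. The erythroid markers miR-451a, miR-486a-5p and miR-144-3p were all measured on both arrays, with scaled log2 ratios of 1.06, 1.66 and -2.33 and a sum of the scanner software's total signal per miRNA of 42940 in LLC and 5955 in MSC+LLC, on that scale and not in probe intensity units. Of 4 leukocyte and platelet markers, all detected in LLC, 3 were measured on both arrays, beside 47.8% of all miRNAs detected in LLC. These were miR-223-3p at 0.14, miR-126a-3p at -0.51 and miR-142a-3p at -2.25, and miR-150-5p was the marker of this list seen in LLC only. Their summed signal was 8310 and 586. The liver marker miR-122-5p had a ratio of 0.78, with summed signals of 301 and 38.5, and the muscle markers miR-133a-3p, miR-206-3p and miR-1a-3p had ratios of 1.28, 1.07 and 0.15, with summed signals of 1242 and 166. The summed signal of the epithelial miRNAs fell 8.91-fold between the arrays. That of the other miRNAs known from epithelia fell 18.3-fold, and that of the mesenchymal list 14.4-fold. The fall was 7.21-fold for the erythroid, 14.2-fold for the leukocyte and platelet, 7.81-fold for the liver and 7.46-fold for the muscle markers. Such sums weigh the brightest miRNAs of a list most. In probe intensity on the LLC array, miR-192-5p reached 4360 units, with miR-215-5p next in its list at 919. In the mesenchymal list miR-21a-5p reached 30510, with miR-10b-5p next at 1507. Among the erythroid markers miR-451a reached 67741, while miR-144-3p was 57.9-fold dimmer before scaling. The part of blood cells, liver and muscle in the values of the epithelial miRNAs was not tested.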
